A study of Arabidopsis thaliana with 12 samples.

Results

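The genotype by growth stage interaction measures, for each transcript, how far the difference between SPH1 RNAi and Col-0 rosettes at stage 1.14 departs from the same difference at stage 1.05. All 12 arrays of the series enter it, 3 in each of 4 groups. Leaf RNA of Arabidopsis thaliana was hybridised to Affymetrix ATH1 arrays, which carry 22810 probe sets. The 4 groups were Col-0 and a line called SPH1, which is Col-0 carrying an RNAi construct in SPH1, each sampled as rosette leaves at stages 1.05 and 1.14 on the scale whose decimals count rosette leaves. Every group was grown on compost in the same greenhouse regime, at 20 °C, 80% humidity and a 16 h photoperiod, and 40 plants were pooled. The labels used here do not state the promoter of the construct, the number of transgenic lines or whether the 3 arrays of a group are separate harvests, so the p-values measure only the spread between these arrays.

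SPH1 is a member of a plant family of small secreted proteins that resemble the self-incompatibility proteins of poppy. An RNAi construct makes double-stranded RNA that directs the breakdown of the matching mRNA. As a rosette ages, cell division in its leaves ceases, ribosome synthesis and wall growth slow, and transcripts of defence, stress protection and senescence accumulate. The interaction asks whether such age-dependent transcripts depend on genotype in the same way at both stages.

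No probe set is listed here for SPH1, so the targeted transcript was not checked. In the RNAi group of stage 1.14, replicate 3 carries no RNAi tag and was placed by its source name, and replicates 2 and 3 are titled as repeats. Replicate 1 of that group stood apart, with correlations of 0.894 and 0.904 to the other arrays of the group, against 0.969 between those. To a lesser degree so did replicate 2 of Col-0 at stage 1.14, with 0.938 and 0.952 against 0.986. Among 12 root markers 4 had a probe set, and their summed signal was 424 to 695 in Col-0 and 414 to 699 in RNAi at stage 1.05. At stage 1.14 it was 71.4 to 78.1 in Col-0 and 102.7 to 424.8 in RNAi. The highest of these was replicate 1, where PYK10, a root beta-glucosidase, had a signal of 355.2 against 39.4 and 61.3. For mesophyll, only LHCB4.1, a light-harvesting protein, had a listed probe set among 7 markers, and its signal was 2885 to 5049 on all 12 arrays. Stomatal markers had 1 of 3 and flower markers 0 of 9. As a measure of RNA integrity, actin control probes had a 3′ over 5′ log2 ratio of 2.55 ± 0.35 in Col-0 and 2.67 ± 0.59 in RNAi at stage 1.05, and 1.82 ± 0.23 and 1.95 ± 0.45 at stage 1.14 (SD, n = 3). The GAPDH ratio had a higher mean in RNAi at both stages, 0.83 ± 0.47 against 1.42 ± 0.53 and then 0.55 ± 0.1 against 0.9 ± 0.42. Array background was 86.4 to 118.9 in Col-0 and 68.5 to 79.5 in RNAi at stage 1.05. At stage 1.14 it was 71.3 to 100.9 and 75.5 to 136.5. The part of these array values in the results was not tested.

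Signals were analysed as log2(signal + 16), and a fold below is a fold of the signal plus 16. A positive interaction means that the RNAi difference moved upward from stage 1.05 to 1.14, and a negative one that it moved downward. The same number is the stage change in RNAi minus the stage change in Col-0. Of 13263 probe sets tested, 446 passed at a limma adjusted p under 0.05, which is 3.36%. Of these 196 were positive (1.48%) and 250 negative (1.88%), and 125 and 207 were at least 2-fold. The median interaction over all tested probe sets was -0.02. In the same model, the genotype difference alone passed for 707 probe sets at stage 1.05 (5.33%) and for 896 at stage 1.14 (6.76%). The median standard error was 0.248 for an interaction and 0.176 for a difference at a single stage, so the interaction is the less precise quantity. The count of calls depended on single arrays. It was 631 (4.76%) without the RNAi array that stood apart, 119 when replicate 2 of Col-0 at stage 1.05 was left out and 705 when replicate 1 of RNAi at stage 1.05 was. Leaving out replicate 3 of Col-0 gave 159 calls at stage 1.05 and 171 at stage 1.14, and leaving out replicate 3 of RNAi gave 169 and 230. It was 131 when replicate 2 of RNAi at stage 1.05 was dropped and 211 when replicate 1 of Col-0 at stage 1.14 was. Of the 446, 105 passed in all 12 fits that left out 1 array each. No called value changed sign in those fits, which the choice of calls far from 0 favours.

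The calls fell into a simple arrangement. Among the 196 positive probe sets, 140 (71.4%) differed mainly at stage 1.14, where RNAi was higher, with a median difference of 0.95 there and -0.16 at stage 1.05. A further 43 were lower in RNAi at stage 1.05 and higher at stage 1.14, and 13 were mainly lower at stage 1.05. Of the 250 negative probe sets, 167 (66.8%) differed mainly at stage 1.05, where RNAi was higher, with a median difference of 1.51. Another 36 were mainly lower in RNAi at stage 1.14, and 47 were higher at stage 1.05 and lower at stage 1.14. "Mainly" means that the difference at that stage was at least 2 times the other.

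Seen along the stage axis, 195 of the 196 positive probe sets had a lower Col-0 mean at stage 1.14 than at 1.05, with a median change of -1.39 in Col-0 and -0.29 in RNAi. All 250 negative probe sets had a higher Col-0 mean at stage 1.14, by a median of 1.86 against 0.39 in RNAi. The Col-0 change is part of the interaction with its sign turned, so the choice of called probe sets favours this pattern, and these medians are a description.

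**Figure D1:**
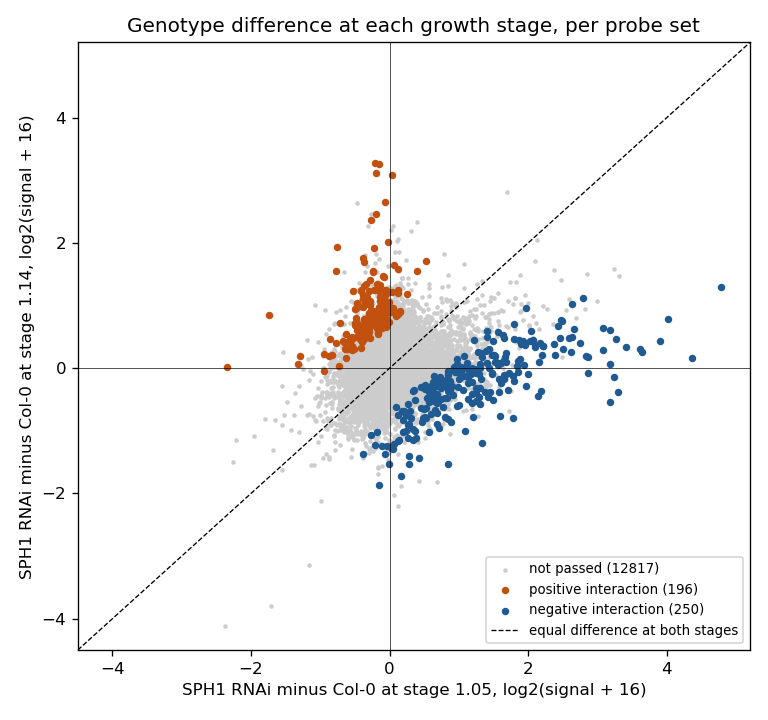
Each point is a probe set, with the SPH1 RNAi minus Col-0 difference at stage 1.05 on the horizontal axis and at stage 1.14 on the vertical axis, both in log2(signal + 16). The 196 positive calls lie above the dashed line of equal differences, mostly along the vertical axis, and the 250 negative calls lie below it, mostly along the horizontal axis toward higher RNAi signal at stage 1.05.

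Transcripts of the translation apparatus supplied more positive genes than any other list examined. Counted with 1 probe set per gene, 223 of 7037 genes passed (3.17%), 111 positive (1.58%) and 112 negative (1.59%). Of 120 tested genes for cytosolic ribosomal proteins, the structural proteins of the ribosome, 40 were positive and 0 negative, and 119 had an interaction above 0. Their median interaction was 0.83. Of 25 genes for ribosome biogenesis, whose products process ribosomal RNA and assemble the subunits, 12 were positive and 0 negative, and all 25 were above 0, with a median of 0.79. These lists held 52 of the 111 positive genes. Outside them 59 of 6892 genes were positive (0.856%), and among outside genes with a mean signal of at least 340.4, the lower quartile of the ribosomal protein genes, it was 6 of 694 (0.865%). These lists were completed after values had been seen, and some biogenesis genes entered because they had moved.

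Both subunits took part. For the small (40S) subunit 13 of 43 genes were positive with a median of 0.85, and for the large (60S) subunit 27 of 77 with a median of 0.80. At stage 1.05 the ribosomal protein genes had a median RNAi difference of -0.10 and at stage 1.14 of 0.71. Their median stage change was -1.30 in Col-0 and -0.47 in RNAi. Per array, the median deviation of these 120 genes from their 12-array means was 0.47, 0.55 and 0.46 in Col-0 and 0.50, 0.34 and 0.35 in RNAi at stage 1.05. At stage 1.14 it was -0.68, -1.05 and -0.66 in Col-0 and 0.10, -0.18 and -0.14 in RNAi. The genotypes overlapped at stage 1.05, and at stage 1.14 all 3 RNAi arrays lay above all 3 Col-0 arrays.

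Single arrays moved the count more than the size. Over the 12 fits without 1 array the ribosomal protein count ran from 12 (without Col-0 at stage 1.05 replicate 2) to 45 (without RNAi at stage 1.05 replicate 1), while the median stayed between 0.67 and 0.91. It was 14 without RNAi at stage 1.05 replicate 2 or 3 or Col-0 at stage 1.05 replicate 3, 20 and 23 without replicate 3 of Col-0 or RNAi at stage 1.14, and 26 without Col-0 at stage 1.05 replicate 1 or Col-0 at stage 1.14 replicate 1 or 2. Without the RNAi array that stood apart, 37 were positive and the median was 0.71, against 2.00% of all genes positive in that fit. The biogenesis count ran from 3 to 12, and its median stayed between 0.74 and 0.94. At stage 1.05 it was 7, 3 and 6 when replicates 1, 2 and 3 of Col-0 were left out, and 4 and 5 for replicates 2 and 3 of RNAi. At stage 1.14 it was 7 and 4 for replicates 1 and 3 of Col-0 and 6 for replicate 3 of RNAi. Of 7 markers of dividing cells 3 had a probe set, and their summed signal was 270 to 358 in Col-0 and 248 to 280 in RNAi at stage 1.05, then 91.7 to 129.8 in Col-0 and 169.6 to 282.3 in RNAi at stage 1.14. Their part in the result was not tested, and in whole leaves fewer cells of a type and less RNA per cell cannot be told apart. Many ribosomal proteins have near-identical gene copies whose probe sets may share signal.

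**Figure D2:**
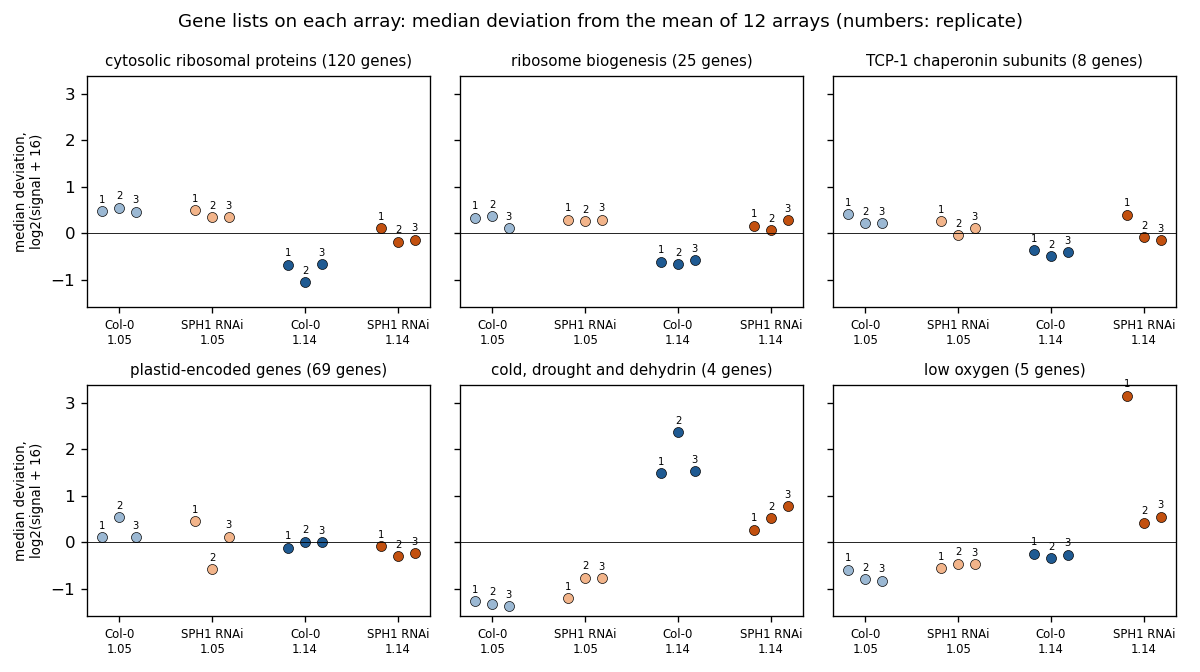
Each point is 1 array, and its height is the median over a gene list of the deviation from each gene's 12-array mean, in log2(signal + 16), with the replicate number above it. Ribosomal protein, ribosome biogenesis and TCP-1 chaperonin genes are lowest in Col-0 at stage 1.14, plastid-encoded genes run from -0.58 to 0.53 at stage 1.05 with the genotypes overlapping and from -0.30 to 0.01 at stage 1.14, and replicate 1 of RNAi at stage 1.14 stands at 3.15 for low-oxygen genes. The low-oxygen list includes AT1G33055, which met the signal filter only through that array.

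AT3G44590, a P2 protein of the ribosomal stalk, had signals of 876.4, 999.5 and 962.0 in Col-0 and 841.2, 737.8 and 845.1 in RNAi at stage 1.05. At stage 1.14 they were 243.4, 165.9 and 232.8 in Col-0 and 538.2, 488.4 and 552.5 in RNAi. Col-0 was lowest at stage 1.14, and the groups of that stage did not overlap. The interaction was 1.48 ± 0.22 (SE; limma adjusted p = 0.00628). AT3G16780, for ribosomal protein L19, went from 496.6, 488.6 and 472.2 in Col-0 and 437.9, 322.9 and 395.5 in RNAi to 120.6, 98.0 and 129.5 in Col-0 and 302.5, 238.2 and 277.7 in RNAi. Here RNAi lay below Col-0 at stage 1.05 and above it at stage 1.14 on every array, although the earlier difference of -0.33 ± 0.15 did not pass (adjusted p = 0.25). Its interaction was 1.46 ± 0.22 (adjusted p = 0.00628).

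AT1G07070, for ribosomal protein L35a, crossed over with both differences past the threshold. In Col-0 its signals were 244.0, 239.9 and 214.1 at stage 1.05 and 54.9, 52.0 and 57.9 at stage 1.14. In RNAi they were 177.7, 158.9 and 148.9, then 104.9, 89.7 and 95.9. The difference was -0.48 ± 0.12 at stage 1.05 (adjusted p = 0.0324) and 0.67 ± 0.12 at stage 1.14 (adjusted p = 0.00829), with an interaction of 1.15 ± 0.17.

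Small-subunit genes had the same order of groups at other signal levels. AT2G32060, for protein S12, was at 928.6, 1079.2 and 1061.5 in Col-0 and 875.8, 746.7 and 885.0 in RNAi at stage 1.05, and at 294.8, 236.7 and 299.1 against 604.3, 512.4 and 599.6 at stage 1.14. AT3G60770, for S13, went from between 1619.8 and 1708.0 to between 527.9 and 597.4 in Col-0, but only from between 1394.5 and 1552.8 to between 924.0 and 1218.3 in RNAi. AT4G30800, for S11, had overlapping groups at stage 1.05 (176.6 to 211.3 in Col-0, 174.0 to 190.0 in RNAi) and separate ones at stage 1.14 (36.2 to 59.0 and 127.5 to 136.3). Their interactions were 1.30 ± 0.21, 1.11 ± 0.19 and 1.24 ± 0.21, with adjusted p = 0.00929, 0.0133 and 0.0111. AT5G22440, for the large-subunit protein L10a, was at 1.29 ± 0.22 (adjusted p = 0.0133). These 7 genes passed in all 12 fits without 1 array. Of the 40 positive ribosomal protein genes only 11 did so. AT2G21580, for S25, was at 1.08 ± 0.20 (adjusted p = 0.0154), and lost its call only without Col-0 at stage 1.05 replicate 2, at an adjusted p of 0.052 and a value within 0.98 to 1.16.

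Among the ribosomal protein genes that did not pass, AT5G39850 and AT2G16360 of the small subunit had the lowest values, -0.04 ± 0.27 and 0.01 ± 0.24. AT5G39850 was the single member below 0. The highest value of the ribosomal protein genes, 1.53 ± 0.27 (adjusted p = 0.0139), belonged to AT3G28500, which rose with stage instead of falling. Its stage change was 0.32 in Col-0 and 1.86 in RNAi. At stage 1.14 it had 48.1 to 78.7 in Col-0 and 145.3 to 242.4 in RNAi, after overlapping groups at stage 1.05.

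The biogenesis genes were led by AT3G13230, related to the yeast assembly factor PNO1, with an interaction of 1.38 ± 0.19 (adjusted p = 0.00588). Its signals were 365.9, 427.0 and 380.9 in Col-0 and 290.7, 294.5 and 323.0 in RNAi at stage 1.05, then 123.1, 129.3 and 121.9 in Col-0 and 240.1, 323.3 and 255.9 in RNAi. The stage change was -1.53 in Col-0 and -0.15 in RNAi, and the later groups did not overlap. AT1G25260, related to yeast MRT4 of the ribosomal stalk, went from between 524.4 and 538.5 to between 131.1 and 201.1 in Col-0, and from between 463.4 and 495.0 to between 364.3 and 442.6 in RNAi (interaction 1.28 ± 0.23, adjusted p = 0.014). AT3G22660, related to yeast EBP2 of the large-subunit precursor, was at 1.18 ± 0.21 (adjusted p = 0.0154), with 27.9 to 31.5 in Col-0 and 53.6 to 85.5 in RNAi at stage 1.14. These 3 passed in every fit without 1 array, and they were the only ones of the 12 positive biogenesis genes to do so.

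AT5G14520, the Pescadillo homologue needed for the large subunit, was at 1.13 ± 0.21 (adjusted p = 0.0179). At stage 1.14 it had 132.1, 116.9 and 144.4 in Col-0 and 387.1, 276.1 and 341.5 in RNAi, while at stage 1.05 the genotypes overlapped between 331.7 and 417.9. It missed the threshold when replicate 2 of Col-0 or replicate 3 of RNAi at stage 1.05 was left out, with values of 1.02 to 1.25 and a highest adjusted p of 0.0588. The other 8 positive members ran from 0.75 to 1.14 and included PRH75, a DEAD-box RNA helicase (1.14 ± 0.23), YAO, a nucleolar WD-repeat protein (0.92 ± 0.20), and PCN (0.93 ± 0.20).

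TCP-1 chaperonin genes, whose products fold tubulin and actin, had 1 positive of 8 (12.5%), beside 1.58% of all genes. All 8 were above 0 with a median of 0.68. This list too was written after values had been seen, and a single call does not describe the family. The positive gene was AT3G03960, for the theta subunit. It was at 364.1, 357.2 and 330.3 in Col-0 and 307.1, 250.1 and 255.2 in RNAi at stage 1.05, and at 129.3, 124.3 and 136.1 against 238.9, 206.5 and 202.2 at stage 1.14. RNAi lay below Col-0 on every array at the earlier stage and above it on every array at the later one (interaction 1.02 ± 0.18, adjusted p = 0.0142).

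Of 69 genes encoded in the plastid genome, which serve photosynthesis, transcription and translation in the chloroplast, 0 passed, beside 3.17% of all genes. The median interaction was 0.04. Members ran from -0.46 to 1.02, with standard errors as wide as 0.81 (rps15), so a count of 0 does not show equal differences at both stages. The list was written after values had been seen.

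The other named positive genes include AT4G29030, for which no role is given here. Its signals were 788.7, 729.2 and 808.5 in Col-0 and 808.7, 572.7 and 722.4 in RNAi at stage 1.05. They were 29.5, 16.5 and 27.9 in Col-0 at stage 1.14, against 587.2, 206.8 and 406.5 in RNAi. The genotypes overlapped at stage 1.05, and at stage 1.14 every RNAi array was far above every Col-0 array. The interaction was 3.41 ± 0.41 (adjusted p = 0.00314), and 3.09 without the RNAi array that stood apart.

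AT1G10640, of the polygalacturonase family that cuts pectin, went from 108.9, 139.2 and 95.9 to 12.3, 11.9 and 16.0 in Col-0. In RNAi it went from 84.8, 94.9 and 80.5 to 63.7, 52.0 and 60.6. The 3 RNAi arrays at stage 1.14 were close together and far above Col-0, and the interaction was 1.68 ± 0.20 (adjusted p = 0.00314). AT5G20740, of the family of pectin methylesterase inhibitors, was at 12.5, 2.0 and 8.0 in Col-0 and at 92.7, 34 and 70.7 in RNAi at stage 1.14, after 56.6 to 83.4 and 42.2 to 57.2 at stage 1.05 (interaction 2.13 ± 0.37, adjusted p = 0.0133). Its Col-0 signals at stage 1.14 lie under the offset of 16. AT4G29030, AT1G10640 and AT5G20740 passed in all 12 fits without 1 array.

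**Figure D3:**
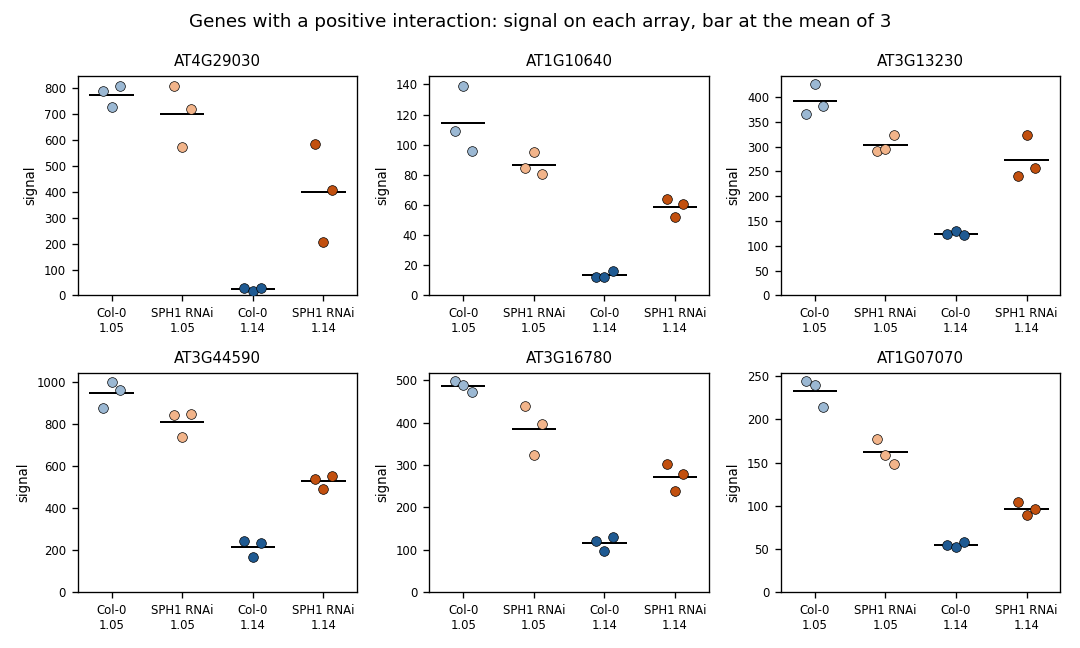
Each panel shows the signal of 1 gene on a linear scale for the 3 arrays of each group, with a bar at the group mean. In all 6 genes Col-0 at stage 1.14 is the lowest group, and the mean of SPH1 RNAi at stage 1.14 lies between it and the stage 1.05 means.

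The widest interaction of a named gene on the positive side belonged to AT1G62500, of the lipid-transfer protein family, small secreted proteins that bind lipids. Its signals were 424.3, 162.4 and 177.7 in Col-0 and 318.2, 162.3 and 147.9 in RNAi at stage 1.05, then 15.1, 7.1 and 15.2 in Col-0 and 817.1, 142.2 and 140.1 in RNAi. The 817.1 came from the RNAi array that stood apart, and the other RNAi arrays were still well above Col-0. The interaction was 3.49 ± 0.79 (adjusted p = 0.0351), and 2.69 without that array (adjusted p = 0.0163). AT2G28790, an osmotin-like protein, had the same high array, with 1200.8, 273.4 and 292.8 in RNAi against 66.5, 51.6 and 62.8 in Col-0 at stage 1.14. It was at 2.72 ± 0.60 (adjusted p = 0.0339), and at 2.04 without it (adjusted p = 0.00565). Both calls were lost without any single Col-0 array or RNAi at stage 1.05 replicate 2 or 3, with values of 2.69 to 3.90 and 2.04 to 3.08 over the 12 fits and highest adjusted p of 0.089 and 0.0852. Of 10 tested lipid-transfer genes AT1G62500 was the 1 that passed with all arrays (10.0%, beside 1.58% of all genes positive). However, the positive count was 4, 3 and 2 when replicate 1, 2 or 3 of RNAi at stage 1.14 was left out. It was 0 without any single Col-0 array or replicate 2 or 3 of RNAi at stage 1.05, and members were negative without replicate 1 of RNAi (2) or of Col-0 (1) at stage 1.05.

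A further 5 named genes were high on that array too. At stage 1.14 replicate 1 of RNAi exceeded both other RNAi arrays for GH9B13, a family 9 glycosyl hydrolase (287.9 against 87.5 and 87.4), and for ARPN, the copper protein plantacyanin (194.7 against 77.5 and 87.0). It did so for AT4G38660, of the thaumatin family (253.1 against 98.3 and 106.7), AT5G45670, a GDSL-type lipase (186.4 against 101.2 and 98.5), and AT3G53190, of the pectate lyase family (368.4 against 140.7 and 241.2). Every one of these RNAi signals lay above every Col-0 signal of that stage, which reached at most 35.1, 33.7, 59.2, 31.3 and 83.4 in the same order. Low-oxygen genes also stood high on that array, with a list median of 3.15 against 0.42 and 0.55 on the other RNAi arrays. Of 9 such genes with a probe set 5 were tested. They include AT1G33055, at 428.6 there and at most 36.6 elsewhere, which met the signal filter only through that array. The root marker sum was 424.8, with PYK10 at 355.2 and JAL22 at 30.0 (7.1 and 7.8 on the other RNAi arrays). EXPA7 was lower there (12.6 against 27.8 and 20.8), and EXPA18 was at 27.0 against 28.4 and 22.8. The part of low-oxygen genes and root markers in these results was not tested. The 5 interactions were 2.17, 1.42, 1.37, 1.77 and 1.49 without that array and still passed, against 2.69, 1.79, 1.76, 2.04 and 1.80 with it.

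Those 5 calls were less firm toward other arrays. ARPN kept its call in 8 of 12 fits, losing it without Col-0 at stage 1.05 replicate 2 or 3, Col-0 at stage 1.14 replicate 3 or RNAi at stage 1.05 replicate 2, at values of 1.42 to 2.01. GH9B13 kept it in 7, losing it without Col-0 at stage 1.05 replicate 3, Col-0 at stage 1.14 replicate 1 or 2, or RNAi at stage 1.05 replicate 2 or 3, at 2.17 to 2.95. AT5G45670 kept it in 6, losing it without any Col-0 array of stage 1.05, Col-0 at stage 1.14 replicate 3, or RNAi at stage 1.05 replicate 2 or 3, at 1.65 to 2.27. AT4G38660 and AT3G53190 kept it in 4 and 3, losing it without any Col-0 array or RNAi at stage 1.05 replicate 2 or 3, and AT3G53190 also without RNAi at stage 1.14 replicate 3, at 1.37 to 1.99 and 1.49 to 2.14. The highest adjusted p of the 5 was 0.089.

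Only 2 of the named positive genes differed mainly at stage 1.05, where RNAi was lower. SAG29, the sugar transporter SWEET15, had 104.9, 107.1 and 147.2 in Col-0 and 33.7, 6.3 and 42.8 in RNAi at stage 1.05, and overlapping groups at stage 1.14 (9.4 to 19.6 and 10.2 to 89.7). Its interaction of 2.59 ± 0.62 (adjusted p = 0.0425) passed in 2 of 12 fits without 1 array, those without RNAi at stage 1.05 replicate 1 or RNAi at stage 1.14 replicate 2, at values of 2.08 to 3.09 and adjusted p up to 0.101. EXPB1, a beta-expansin that loosens walls, had 98.6, 85.8 and 93.9 in Col-0 and 57.6, 43.2 and 48.7 in RNAi, and then 22.7 to 29.7 against 23.5 to 31.8. It was at 0.76 ± 0.19 (adjusted p = 0.0481) and passed in 2 of 12 fits, those without RNAi replicate 1 of either stage, at 0.69 to 0.84 and adjusted p up to 0.117. It was the single expansin of 8 tested to pass with all arrays (12.5%, beside 1.58% of all genes positive). Over the fits without 1 array 0 to 2 expansins were positive, with 2 when replicate 1 of RNAi at stage 1.05 was left out. When replicate 2 of Col-0 at stage 1.14 was left out, 1 expansin was negative. EXPB3 was at 1.47 ± 0.38 (adjusted p = 0.0601).

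The negative side was led by genes that were low in Col-0 at stage 1.05 and high in the other groups. AT1G13470 had the smallest adjusted p among the named genes. In Col-0 its signals were 13.2, 3.3 and 5.8 at stage 1.05 and 282.4, 415.5 and 291.1 at stage 1.14. In RNAi they were 220.3, 230.4 and 163.4, then 302.9, 252.6 and 324.3. Col-0 at stage 1.05 lay under the offset, the other arrays had 163.4 or more, and the genotypes overlapped at stage 1.14. The difference was 3.24 ± 0.20 at stage 1.05 and -0.15 ± 0.20 at stage 1.14, and the interaction -3.39 ± 0.28 (adjusted p = 0.000435).

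CHI, a putative chitinase, an enzyme that cuts the chitin of fungal walls, had 46.1, 37.1 and 31.6 in Col-0 and 383.7, 1234.4 and 1047.1 in RNAi at stage 1.05. At stage 1.14 it had 650.3, 1008.3 and 692.2 in Col-0 and 1026.6, 1354.6 and 808.2 in RNAi. Only Col-0 at stage 1.05 stood outside, and the later groups overlapped. The interaction was -3.48 ± 0.51 (adjusted p = 0.00619). RING1, a ubiquitin ligase of the RING type, had 244.6, 206.5 and 165.7 in Col-0 and 1120.8, 1212.6 and 1066.5 in RNAi, followed by 1090.6, 1675.9 and 1532.4 in Col-0 and 1441.9, 1836.8 and 1647.3 in RNAi. Its interaction was -2.18 ± 0.26 (adjusted p = 0.00318). AT1G76960, for which no role is given here, went in Col-0 from 71.9, 48.2 and 49.4 to 559.5, 1494.8 and 552.2, and was at 556.3, 827.5 and 713.2 and then 454.2, 663.1 and 684.5 in RNAi. With -3.68 ± 0.47 (adjusted p = 0.00382) it had the lowest interaction of a named gene.

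For the next 3 named genes Col-0 at stage 1.05 was again the lowest group. AT3G25600, a calmodulin-like calcium sensor, had 62.0, 44.3 and 34.7 in Col-0 and 255.7, 193.1 and 195.1 in RNAi at stage 1.05, and 234.2 to 301.0 and 260.0 to 307.2 at stage 1.14 (interaction -1.74 ± 0.25, adjusted p = 0.00619). Its neighbour by locus number, AT3G25610, a phospholipid-transporting ATPase, had 5.0, 1.6 and 2.9 in Col-0 and 46.3, 52.2 and 34.6 in RNAi, then 77.2 to 131.7 and 86.4 to 87.3 (-1.82 ± 0.24, adjusted p = 0.00533). AT1G67920 went from 4.3 to 5.4 in Col-0 and 65.9 to 72.0 in RNAi to 55.6 to 93.0 and 85.4 to 112.6 (-1.59 ± 0.23, adjusted p = 0.00619). In the list of other calcium-binding EF-hand genes 0 of 3 passed, with a median of -0.50. For AT3G25600, AT3G25610 and AT1G67920 the groups were apart at stage 1.05 and overlapped at stage 1.14. Of 24 cytochrome P450 genes with a probe set 10 were tested, and CYP71B23 alone passed (10.0%, beside 1.59% of all genes negative). In this list 2 passed when replicate 1 of RNAi at stage 1.05 was left out. CYP71B23 was at -1.80 ± 0.31 (adjusted p = 0.0137), with 15.1 to 37.4 in Col-0 and 93.7 to 151.4 in RNAi at stage 1.05. AT1G13470, CHI, RING1, AT1G76960, AT3G25600, AT3G25610, AT1G67920 and CYP71B23 passed in all 12 fits without 1 array.

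**Figure D4:**
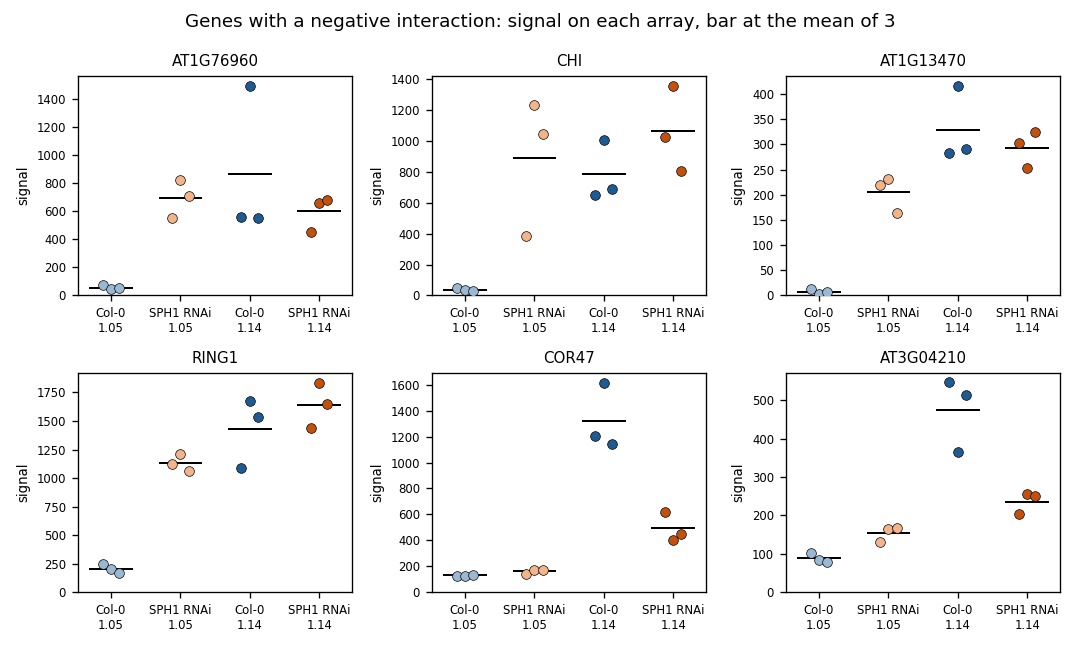
Each panel shows the signal of 1 gene on a linear scale for the 3 arrays of each group, with a bar at the group mean. In AT1G76960, CHI, AT1G13470 and RING1 Col-0 at stage 1.05 is the single low group, whereas in COR47 and AT3G04210 SPH1 RNAi at stage 1.14 lies below Col-0 of the same stage.

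Receptor genes are set here against 1.59% of all genes with a negative call, on lists that were written after values had been seen. The LRR receptor kinase AT1G35710 had 136.5, 74.2 and 58.5 in Col-0 and 525.2, 647.7 and 452.3 in RNAi at stage 1.05, and overlapping groups later (391.4 to 600.2 and 566.0 to 832.0). Its interaction was -1.98 ± 0.37 (adjusted p = 0.017), and its call was lost without replicate 2 of either genotype at stage 1.05, at -2.28 to -1.76 with a highest adjusted p of 0.0583. Of 29 malectin-like LRR receptor kinase genes with a probe set, only 5 met the signal filter and were tested. Of these 2 passed (40.0%), AT1G51890 (-1.10 ± 0.26, adjusted p = 0.0408) and AT5G59680 (-1.76 ± 0.42, adjusted p = 0.0416), and all 5 were below 0. Both calls were lost with an offset of 64 and without a filter on signal. Each of the 2 kept its call in 3 of 12 fits without 1 array, in a range of -1.27 to -0.99 and of -2.19 to -1.51, with adjusted p up to 0.108 and 0.103. The fits that kept the call of AT1G51890 were those without replicate 1 of Col-0 or of RNAi at stage 1.05, or of RNAi at stage 1.14. For AT5G59680 they were those without replicate 1 of RNAi at either stage, or replicate 2 of Col-0 at stage 1.14.

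Glutamate receptor-like channels, which carry ions including calcium, had 2 negative of 6 (33.3%). Both calls were lost with an offset of 64, and that of GLR2.7 also without a filter on signal. GLR1.4 had 38.6, 31.8 and 43.0 in Col-0 and 117.7, 139.2 and 121.7 in RNAi at stage 1.05, and 106.5 to 124.6 against 150.2 to 188.5 at stage 1.14. RNAi was the higher at both stages, by 1.40 ± 0.13 and 0.50 ± 0.13, and the interaction was -0.91 ± 0.19 (adjusted p = 0.0253). GLR2.7 differed at stage 1.05 (18 to 43.4 against 103.9 to 134.8) and overlapped at stage 1.14, with -1.59 ± 0.34 (adjusted p = 0.031). GLR1.4 kept its call in 8 of 12 fits, losing it without replicate 2 of Col-0 or replicate 2 or 3 of RNAi at stage 1.05, or replicate 3 of Col-0 at stage 1.14, at -0.98 to -0.83. GLR2.7 kept it in 6, losing it without replicate 2 or 3 of any group but RNAi at stage 1.14, at -1.81 to -1.34, and the highest adjusted p were 0.0756 and 0.0815. The GLR3 members GLR3.3 and GLR3.6 were at -0.07 ± 0.24 and 0.05 ± 0.18.

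Among immune receptors with TIR or NB-LRR domains 1 of 7 passed (14.3%), or 2 when replicate 1 of RNAi at stage 1.05 was left out, and all 7 were below 0 with a median of -0.32. The passing gene, AT3G04210, crossed over. It had 103.7, 83.7 and 78.6 in Col-0 and 131.6, 164.3 and 168.0 in RNAi at stage 1.05, then 546.9, 366.0 and 513.4 in Col-0 and 204.1, 255.1 and 249.4 in RNAi. RNAi was above Col-0 on every array early and below it on every array late, by 0.71 ± 0.18 (adjusted p = 0.0349) and -0.95 ± 0.18 (adjusted p = 0.0103). The interaction was -1.65 ± 0.25 (adjusted p = 0.00667), and it passed in all 12 fits without 1 array.

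WRKY47, a transcription factor, was the single negative of 4 WRKY genes (-0.77 ± 0.15, adjusted p = 0.023). It had 36.9, 33.4 and 38.5 in Col-0 and 113.9, 101.5 and 101.9 in RNAi at stage 1.05, and 106.9 to 115.1 and 148.5 to 166.8 at stage 1.14, so that RNAi was higher at both stages. Of 14 AAA-type ATPase genes with a probe set 5 met the signal filter, and AT3G28540 was the single negative with all arrays (20.0%). It was at -2.04 ± 0.45 (adjusted p = 0.0334), with 25.8 to 82.8 in Col-0 and 387.0 to 421.0 in RNAi at stage 1.05. PMEPCRF, a pectin methylesterase, had 236.0 to 341.7 in Col-0 and 559.2 to 687.8 in RNAi at stage 1.05, and overlapping groups at stage 1.14, 455.3 to 523.5 and 384.9 to 491.0 (-1.21 ± 0.23, adjusted p = 0.0183). WRKY47 kept its call in 8 of 12 fits, at -0.82 to -0.73, AT3G28540 in 6, at -2.32 to -1.70, and PMEPCRF in 10, at -1.33 to -1.08, with highest adjusted p of 0.071, 0.0815 and 0.0577. All 3 lost it without replicate 2 of Col-0 or of RNAi at stage 1.05. WRKY47 also lost it without replicate 1 or 3 of Col-0 at stage 1.14. The AAA-type count was 2 when replicate 1 of Col-0 or RNAi at stage 1.05 or of RNAi at stage 1.14 was left out. AT3G28540 also lost its call without replicate 3 of either genotype at stage 1.05, replicate 3 of Col-0 at stage 1.14, or replicate 2 of RNAi at stage 1.14.

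Among cold and dehydration genes the negative calls came from the other stage. Of 18 listed genes 4 had a probe set and were tested. COR47 and LTI30, both dehydrins that protect cells from water loss, were negative (50.0%, beside 1.59% of all genes). All 4 were below 0 with a median of -1.42. COR47 had 130.1, 125.7 and 137.0 in Col-0 and 143.8, 170.3 and 171.6 in RNAi at stage 1.05. At stage 1.14 it had 1205.4, 1614.6 and 1140.5 in Col-0 and 619.5, 405.7 and 452.9 in RNAi. Both genotypes were higher at stage 1.14, and there every RNAi array lay below every Col-0 array. The difference at stage 1.14 was -1.40 ± 0.18 and the interaction -1.67 ± 0.25 (adjusted p = 0.00703), which passed in all 12 fits without 1 array. LTI30 had 17.6, 24.8 and 26.1 in Col-0 and 20.9, 37.7 and 36.3 in RNAi early, then 178.5, 222.0 and 151.2 in Col-0 and 83.0, 83.6 and 108.6 in RNAi. Its interaction was -1.17 ± 0.26 (adjusted p = 0.0339), and it kept its call in 4 of 12 fits, at -1.34 to -1.03 with adjusted p up to 0.0867. Those 4 fits lacked replicate 1 of RNAi at either stage, replicate 3 of RNAi at stage 1.14, or replicate 3 of Col-0 at stage 1.14. COR15A and COR15B, which protect chloroplast membranes in the cold, were at -2.51 ± 0.91 (adjusted p = 0.148) and -1.18 ± 0.42 (adjusted p = 0.145). At stage 1.14 COR15A had 227.5, 1174.7 and 327.7 in Col-0 and 28.2, 195.2 and 226.6 in RNAi, so that replicate 2 of Col-0 was far above the rest.

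The last named negative genes were AT2G44240, AT3G62550, AT4G38550 and AT5G35735. AT2G44240 had 4.4, 3.5 and 2.6 in Col-0 and 172.2, 782.8 and 1016.6 in RNAi at stage 1.05, then 161.3, 286.8 and 158.5 and 218.1, 807.0 and 697.3. Replicate 1 was the lowest RNAi array at both stages, and the genotypes overlapped at stage 1.14 (-3.49 ± 0.81, adjusted p = 0.0375). AT3G62550, of the universal stress protein family, was at 20.4 to 48 and 36.4 to 176.2 at stage 1.05, and at 1315.8 to 1682.9 in Col-0 and 490.4 to 835.9 in RNAi at stage 1.14 (-2.54 ± 0.56, adjusted p = 0.0339). AT4G38550, on a probe set that may match related transcripts, was at -1.98 ± 0.38 (adjusted p = 0.0187), and AT5G35735 at -1.83 ± 0.34 (adjusted p = 0.0171). AT2G44240 and AT3G62550 passed in 3 and 4 of 12 fits without 1 array, at -4.25 to -2.92 and -3.09 to -2.16, with adjusted p up to 0.0959 and 0.0877. AT2G44240 lost its call without any Col-0 array, RNAi at stage 1.05 replicate 2 or 3, or RNAi at stage 1.14 replicate 3. AT3G62550 lost it without replicate 2 or 3 of any group but Col-0 at stage 1.14, and without replicate 1 or 3 of that group. AT4G38550 passed in 8 and AT5G35735 in 11, at -2.30 to -1.75 and -2.08 to -1.59, with adjusted p up to 0.0594 and 0.0583. Both lost it without Col-0 at stage 1.05 replicate 2, and AT4G38550 also without replicate 3 of Col-0 at either stage or RNAi at stage 1.05 replicate 2.

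**Figure D5:**
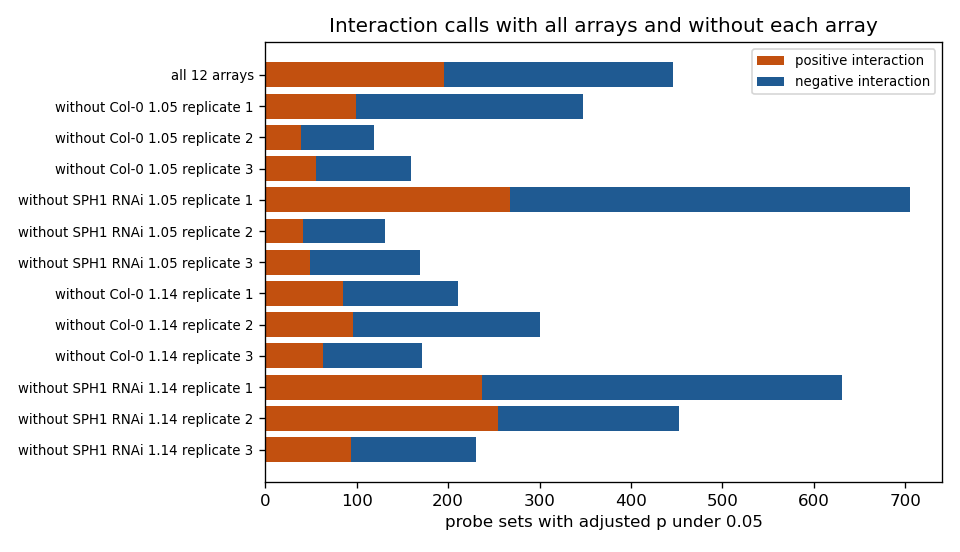
Bars give the number of probe sets with an adjusted p under 0.05, positive and negative stacked, with all 12 arrays and without each array in turn. The total is 446 with all arrays, 119 when replicate 2 of Col-0 at stage 1.05 is left out and 705 when replicate 1 of SPH1 RNAi at stage 1.05 is.

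At the 3.17% of all genes that passed, each of the remaining lists would hold under 1 call, so a count of 0 does not set them apart and they are given as values. Of 5 flavonoid and anthocyanin genes 0 passed, with a median of 0.76, but 3 were positive when replicate 2 of Col-0 at stage 1.14 was left out. DFR, the dihydroflavonol reductase, was at 0.98 ± 0.49 (adjusted p = 0.302). Of 5 low-oxygen genes, with AT1G33055 tested only through replicate 1 of RNAi at stage 1.14, 0 passed, with a median of 1.11. Without replicate 1 of RNAi at stage 1.14 it was 0.41 with 1 positive, and without replicate 1 of RNAi at stage 1.05 1 was negative. Photosystem and electron transport genes (0 of 5, median -0.28), light-harvesting genes (0 of 3) and Calvin cycle genes (0 of 4, median -0.10) had 0 calls as well. The jasmonate-responsive defensins PDF1.2 and PDF1.2b were at -2.09 ± 1.17 and -1.74 ± 1.30, with errors too wide to pass (adjusted p = 0.357 and 0.506). Salicylate-linked genes had 3 members tested, WRKY53 (-0.58 ± 0.34), GRX480 (-0.74 ± 0.26) and SAG101 (-0.71 ± 0.35), and 0 passed. Of 6 tested cell cycle genes 0 passed and 4 were above 0, with a median of 0.77. PRL, a subunit of the replication helicase, was at 1.03 ± 0.27 (adjusted p = 0.0574) and AUR1, an Aurora kinase, at 0.88 ± 0.27 (adjusted p = 0.0931). AUR2 and AT5G17980 were at 0.84 ± 0.29 and 0.70 ± 0.27, but KINESIN-13A and AT5G17930 at -0.02 ± 0.26 and -0.08 ± 0.23. When replicate 2 of RNAi at stage 1.14 was left out, 2 of the 6 were positive. Of 18 UDP-glycosyltransferases 0 passed, with a median of -0.13, but negative members appeared without replicate 1 of RNAi at stage 1.14 (2) or stage 1.05 (1), and 1 positive member without replicate 2 of Col-0 at stage 1.14. When the 2 RNAi arrays of stage 1.14 titled as repeats were left out together, which leaves the array that stood apart as its whole group, positive calls numbered 5 among lipid-transfer, 3 among low-oxygen, 3 among expansin and 2 among cell cycle genes, and negative calls 3 among TIR and NB-LRR, 2 among P450 and 1 each among lipid-transfer and Calvin cycle genes. With these standard errors a value that did not pass is not shown to be equal at both stages.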

How the data were processed

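Rosette-leaf RNA was measured on 12 Affymetrix ATH1 arrays, 1 linear intensity per probe set and array. The authors' deposited intensity values were used as given, and the labels used here do not name the software that summarised them. After leaving out 64 control probe sets and those with a mean signal under 32, 13263 remained. Values were transformed as log2(signal + 16) and fitted with limma 3.58.1 in R 4.3.3 as 4 groups with 8 residual degrees of freedom (lmFit, eBayes with an intensity trend, Benjamini-Hochberg threshold 0.05). The fit was tested on simulated data. The number of arrays limits the precision. The alternatives were other offsets, filters, normalization, variance models, a replicate block and leaving out arrays.

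The probe list names 14016 probe sets, 13513 of them with 1 gene. Of the 446 calls, 224 had 1 gene, 12 had several and 210 are unnamed here. Symbols follow TAIR10.1. Named genes are, per direction, the 10 widest interactions and the 6 smallest p among calls with 1 gene, plus up to 4 members of each gene list, passing members before brighter ones. Members and lists were chosen with earlier results of these data known, and 13 of 53 lists were written after values were seen. Of the 53 lists, 8 had 0 tested genes. Same-numbered arrays of different groups correlated at -0.248 to 0.49 in their deviations from group means, so the numbers were not taken to pair samples.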

Additional observations from a re-analysis of the deposited data

Results flagged for a closer look

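The 48 named genes that passed the interaction test are those whose genotype difference itself differed between the stages. Their interactions, in log2(signal + 16) and from limma over all tested probe sets, were 25 positive and 23 negative. No explanation was tested.

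Positive genes outside the translation and folding lists were AT1G62500 at 3.49, AT4G29030 at 3.41, AT2G28790 at 2.72, GH9B13 at 2.69, SAG29 at 2.59, AT5G20740 at 2.13 and AT5G45670 at 2.04. They went on with AT3G53190 at 1.80, ARPN at 1.79, AT4G38660 at 1.76, AT1G10640 at 1.68 and EXPB1 at 0.76. Ribosomal protein genes were AT3G44590 at 1.48, AT3G16780 at 1.46, AT2G32060 at 1.30, AT5G22440 at 1.29, AT4G30800 at 1.24, AT1G07070 at 1.15, AT3G60770 at 1.11 and AT2G21580 at 1.08. Assembly and folding genes were AT3G13230 at 1.38, AT1G25260 at 1.28, AT3G22660 at 1.18, AT5G14520 at 1.13 and AT3G03960 at 1.02.

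Negative genes were AT1G76960 at -3.68, AT2G44240 at -3.49, CHI at -3.48, AT1G13470 at -3.39, AT3G62550 at -2.54, RING1 at -2.18, AT3G28540 at -2.04, AT4G38550 at -1.98 and AT1G35710 at -1.98. They went on with AT5G35735 at -1.83, AT3G25610 at -1.82, CYP71B23 at -1.80, AT5G59680 at -1.76, AT3G25600 at -1.74, COR47 at -1.67, AT3G04210 at -1.65, AT1G67920 at -1.59 and GLR2.7 at -1.59. The smallest were PMEPCRF at -1.21, LTI30 at -1.17, AT1G51890 at -1.10, GLR1.4 at -0.91 and WRKY47 at -0.77.

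Of the 48, 24 passed in all 12 fits that left out 1 array, 14 positive and 10 negative.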

How the results depend on the processing

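Over the 24 other settings, among them a 2-fold limit on the same fit, no named call changed sign where its gene was tested. The choice of large interactions favours this. A mean signal of at least 64 kept 42 of the 48 named genes. With all arrays 446 probe sets passed, 196 positive and 250 negative. Leaving out each array in turn gave 119 to 705 calls, 39 to 268 positive and 80 to 437 negative, and 12 to 45 positive ribosomal protein genes, 3 to 12 positive biogenesis genes, and 0 negative in both lists. Without SPH1 RNAi at stage 1.14 replicate 1, 631 passed, 400 of them shared with the full fit, and of the named genes SAG29 alone lost its call, while without Col-0 at stage 1.05 replicate 2 it was 23 of 48. Without the 2 repeats, which leaves 1 array in that group that is assumed to vary like the others, 856 passed, 500 of them positive, with 62 ribosomal protein genes. Without a filter on signal the counts were 236, 98 positive and 138 negative, with 26 ribosomal protein genes. Array quality weights gave 2137, 896 positive and 1241 negative, with 71 ribosomal protein genes. Those weights were very unequal. At stage 1.14 replicates 1, 2 and 3 of Col-0 had 1.399, 0.448 and 6.043, and replicate 1 of RNAi had 0.257. In the full unweighted fit, requiring at least 2-fold left 125 positive. Offsets of 64 and 1 gave 338 and 488 calls and lost 9 and 3 named genes. With 64 these were AT1G62500, AT2G28790, AT3G53190, AT2G44240, WRKY47, AT1G51890, AT5G59680, GLR1.4 and GLR2.7. With 1 they were SAG29, AT5G45670 and EXPB1. Quantile normalization gave 385 and lost EXPB1, and the causes were not tested. The fit with the replicate number as a block gave 523 calls, 401 shared, and lost EXPB1 and AT1G51890 of the named genes. Deviations of same-numbered arrays had a median correlation of 0.0245. Signals under the offset, as in Col-0 at stage 1.05 for AT1G13470, have no reliable fold.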
